A study of Mus musculus with 20 samples.

Results

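The genes of glycolysis and lactate metabolism described here were 10 members of a fixed list, read in every one of 20 mouse retina libraries out of 35006 genes counted. They were Hk1 and Hk2 (hexokinases), Gpi1 (glucose-6-phosphate isomerase), Pfkm and Pfkl (phosphofructokinases), Aldoa and Aldoc (aldolases), Gapdh (glyceraldehyde-3-phosphate dehydrogenase), and Ldha and Ldhb (the subunits of lactate dehydrogenase). The list was set by gene name and not by a threshold on measured values. It was, however, chosen with earlier results of these data known. All 10 passed the filter on low counts in each comparison.

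The retinas came from wild-type C57BL/6J mice, and each library was made from polyA RNA of a single retina. Treated mice received NACET, the ethyl ester of N-acetyl-L-cysteine and a source of cysteine that enters cells, in the drinking water at a daily intake of 50 mg/kg for 5 days, and control mice drank water without it. The groups were 4 young control mice aged 119 days, 6 young NACET mice aged 129 days (4 mice) or 119 days (2 mice), 4 old control mice aged 668 days, and 6 old NACET mice aged 668, 581 or 574 days, with 2 mice at each age. Female was the label of 4 young mice (2 controls and 2 on NACET), and male that of the 10 old mice. The title and the batch tag disagree on the age of young NACET replicate 6. The questions that these groups address are how the genes differ between old and young retinas, how they differ between treated and untreated retinas at each age, and whether the treatment difference depends on age.

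Glycolysis splits glucose into pyruvate, and lactate dehydrogenase turns pyruvate into lactate or back. The retina is known for making lactate even where oxygen is plentiful, which is called aerobic glycolysis, and photoreceptors are its main users of glucose. HK2 is the hexokinase that photoreceptors use in particular, while HK1 is present in most neurons. LDHA favours the formation of lactate and LDHB its use, and the HIF1 transcription factor drives many of these genes when oxygen falls.

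Before the results, 1 library has to be named. Old control replicate 4 was labelled male but held 59555 counts of Xist, the RNA of the inactive X chromosome, and 1 count over the Y-linked genes, whereas the other 15 libraries labelled male held at most 15 counts of Xist and at least 3617 Y-linked counts. Values without it are therefore given for many of the members and genes named in comparisons with old controls. Without it edgeR called 129 in place of 234 genes for age in controls and 15 in place of 90 for NACET in old mice, with 0 members in either. Gene counts ranged from 17.7 to 31.1 M per library, and the 10 genes together took 0.510% to 0.663% of them. All 8 rod markers were detected in every group. Markers of lens summed to 10720 CPM (counts per 1e+06 gene counts, scaled by the TMM method) in old NACET replicate 1, and markers of corneal epithelium to 405 CPM in old control replicate 2 and 369 CPM in young NACET replicate 4. Age cohort and age group are nested, so for age they cannot be told apart. In bulk retina, fewer cells of a type and less RNA per cell cannot be told apart either.

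The sequences just before the start sites of 4 of the genes are shown because HIF1 is known to bind ACGTG in promoters of this pathway, and these 4 genes were chosen after their levels were seen: Hk2 and Pfkl are the members called between old and young NACET retinas, and Ldha and Ldhb are the subunits of 1 enzyme. Nothing is read from the match of motif and level. RefSeq promoters of the GRCm38.p6 build were found for all 10 genes, with 18 start sites in all, and each sequence below is the 250 bases before a start site, 5′ to 3′ along the gene. Capitals mark every ACGTG on either strand (CACGT is its reverse complement), and where both overlap they spell CACGTG.
Hk2 (chr6:82774455-82774704, minus strand): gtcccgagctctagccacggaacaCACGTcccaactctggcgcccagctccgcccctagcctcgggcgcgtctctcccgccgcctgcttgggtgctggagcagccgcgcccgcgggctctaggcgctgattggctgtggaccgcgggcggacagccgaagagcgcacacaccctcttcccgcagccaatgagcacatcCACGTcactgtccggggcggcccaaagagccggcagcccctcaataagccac
Pfkl (chr10:78009808-78010057, minus strand): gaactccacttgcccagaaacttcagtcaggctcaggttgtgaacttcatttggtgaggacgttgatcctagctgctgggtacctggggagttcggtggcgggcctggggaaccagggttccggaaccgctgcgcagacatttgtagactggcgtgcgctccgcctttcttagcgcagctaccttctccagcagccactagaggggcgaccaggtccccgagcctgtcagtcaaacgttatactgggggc
Ldha (chr7:46845554-46845803, plus strand): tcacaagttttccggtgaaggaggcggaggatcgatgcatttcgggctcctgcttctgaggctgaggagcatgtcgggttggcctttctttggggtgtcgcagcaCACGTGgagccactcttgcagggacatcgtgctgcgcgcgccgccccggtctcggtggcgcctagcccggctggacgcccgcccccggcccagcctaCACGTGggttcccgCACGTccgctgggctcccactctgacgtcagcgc
Ldhb (chr6:142507958-142508207, minus strand): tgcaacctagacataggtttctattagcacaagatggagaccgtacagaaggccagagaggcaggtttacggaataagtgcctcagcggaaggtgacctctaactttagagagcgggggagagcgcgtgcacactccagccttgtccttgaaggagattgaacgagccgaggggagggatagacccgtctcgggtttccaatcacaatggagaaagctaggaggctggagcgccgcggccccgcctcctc

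The Hk2 window held 2 matches, whose first bases lie at positions -226 and -52 from the start. The upstream start of Ldha held 5 matches, of which 4 overlapped in pairs as CACGTG, while the windows of Pfkl and Ldhb and the second start of Ldha held 0. Among all 32851 promoter windows of the same length 16.6% held the motif at least once, 6.81% at least 2 times and 1.22% at least 3 times, with overlapping matches on the 2 strands each counted. Of the 18 windows of the 10 genes 6 held it, including 2 overlapping Aldoa windows with the same site. By gene, Hk2, Ldha, Pfkm and Aldoa, 4 of the 10, had it before at least 1 of their starts. No share by gene was computed over all genes, so this count has no background beside it. A match is only a run of letters and does not show that a factor was bound there. Only ACGTG was sought, so a window with 0 matches may still hold a site of another spelling.

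Levels between genes were compared per kilobase of exon (RPKM) over the 20 libraries. Aldoa was the most abundant, at 723 ± 80.3 RPKM (SD, n = 20), followed by Ldha at 279 ± 41.3 RPKM. Below them came Aldoc (136 RPKM), Hk1 (105 RPKM), Gpi1 (96.2 RPKM), Hk2 (88.5 RPKM), Pfkl (84.1 RPKM), Ldhb (75.1 RPKM) and Pfkm (52.1 RPKM). The ranges of neighbouring genes from Aldoc to Pfkm overlapped, and within a library the order was loose in the middle: Hk2 exceeded Pfkl in 11 of 20 libraries and Gpi1 exceeded Hk2 in 13 of 20. The ranges of Aldoa and Ldha overlapped with no neighbour. The middle of the order also depends on the length used, which was the union of all annotated exons: over the longest protein-coding transcript, in an alternative chosen after seeing the data, Gpi1 (212 RPKM) and Hk1 (209 RPKM) came before Aldoc (159.5 RPKM), and Pfkl (99.1 RPKM) before Hk2 (95.8 RPKM). Hk2 had the widest spread, with a 2.47-fold gap between its lowest and highest library.

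Gapdh, which is often used as a reference gene, was the lowest of the 10 at 6.31 ± 0.845 RPKM, or 10.6 to 17.6 CPM. This value is uncertain, because 85.6% of the 50-base words of its mature transcript occur elsewhere in the mm9 genome, at 233 separate loci, and reads with more than 1 alignment were not counted. The share was 0% for Hk2, Pfkm and Aldoc, 0.0473% for Hk1 and 0.380% for Pfkl, but 14.8% for Aldoa, 29.1% for Ldha, 31.4% for Gpi1 and 33.6% for Ldhb. Reads from such stretches may be missing from the levels above.

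Gpi1 (mm9, chr7:34987141-35015308, minus strand) had all of its copied words at a single place, chr8:5639630-5641187, where the annotation has the gene Gm1840. The Gm1840 row held 374 ± 27.8 CPM over the 20 libraries, 86.3% of the counts of Gpi1 itself, and of 10355 genes with a mean of at least 10 CPM its pattern across libraries was the most like that of Gpi1 (r = 0.90, a description over 20 libraries that share the scaling). How reads were divided between the 2 rows was not tested. For Ldhb the single copied locus lies in Gm5514, whose row held 14.5 CPM, and for Aldoa the locus with the most copied words lies in Aldoart1, at 77.7 CPM. Counts of such rows were added to their parent gene in an alternative chosen after seeing the data. For age in controls the log2 changes were then -0.10 for Gpi1, -0.14 for Aldoa, -0.28 for Ldha and 0.16 for Ldhb, and none was called. The average log2 CPM of Gpi1 in that comparison rose from 8.77 to 9.67, so its level above depends on how the Gm1840 row is treated.

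**Figure D1:**
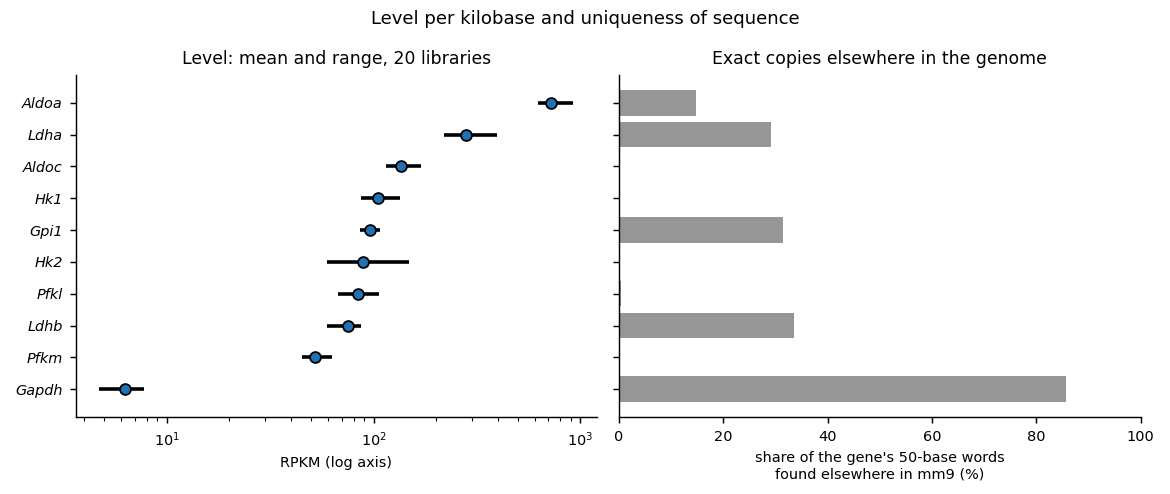
Left, the level of each gene in RPKM on a log axis (point: mean of 20 libraries, line: lowest to highest). Right, the share of the gene's 50-base words that occur elsewhere in mm9, which is 85.6% for Gapdh, the gene with the lowest level, and 0% for Hk2, Pfkm and Aldoc.

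The first comparison is of old with young retinas in untreated mice, in which the old were all labelled male and the young were 2 males and 2 females. Ldha, which makes lactate, was at 1182, 872, 862 and 939 CPM in the 4 young control libraries and at 762, 810, 764 and 841 CPM in the 4 old ones. Every old library lay below every young one, the only such separation among the 10 genes, and 10.3% of all genes tested had groups that did not overlap, in either direction. The fitted log2 change of Ldha was -0.28 (SE 0.10, adjusted p = 0.190, edgeR quasi-likelihood test with Benjamini-Hochberg adjustment over all 16484 genes), which did not pass the threshold of 0.05. Without old control replicate 4 it was -0.30 (edgeR adjusted p = 0.258). With labelled sex as a covariate it was -0.36 (edgeR adjusted p = 0.208). As all old controls were labelled male, that value rests on the 2 young controls labelled male, at 1182 and 872 CPM. It also takes old control replicate 4 as male, as labelled.

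Ldhb, the other subunit, was the single gene of the 10 with a higher mean in old controls. It was at 123, 101, 97.8 and 119 CPM in young controls and at 129, 119, 118 and 127 CPM in old controls, so that 2 old libraries exceeded every young one (log2 change 0.17, SE 0.07, edgeR adjusted p = 0.288). The remaining 8 genes were lower on average in old controls, by 0.08 (Pfkm) to 0.25 (Hk2) on the log2 scale, and none passed the test. Hk2 was at 634, 530, 603 and 530 CPM in young controls and at 387, 531, 463 and 544 CPM in old controls. Replicates 2 and 4 of the old controls lay within the young range and the other two below it.

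For Pfkl 3 of 4 old controls lay below all young ones, and edgeR gave a log2 change of -0.21 (adjusted p = 0.206, SE 0.08). Without old control replicate 4 the changes were -0.32 for Hk2, -0.23 for Pfkl and 0.15 for Ldhb (edgeR adjusted p = 0.250, 0.272 and 0.462). Aldoc and Hk1 had log2 changes of -0.19 and -0.17 with that library, and -0.22 and -0.19 without it. In this comparison edgeR called 1.42% of 16484 genes and 0 of the 10 members. DESeq2, without the filter on low counts, called 2.86% of 25177 genes and 0 members. At an unadjusted p under 0.05 there were 6 of 10 members, against 16.3% of all genes. The median log2 change was -0.16 over the members and -0.01 over all genes tested, and 9 of the 10 members had a negative value against 51.8% of all genes.

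**Figure D2:**
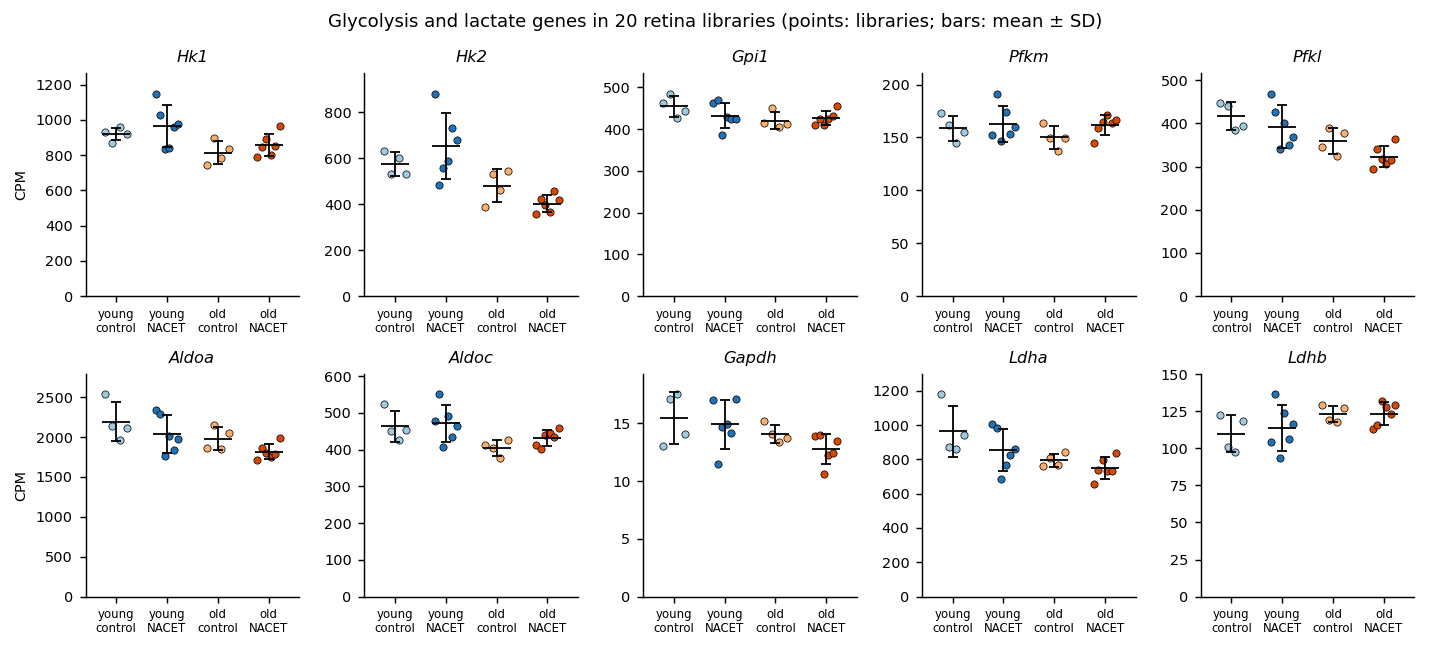
CPM of the 10 genes in each library, by group (points: libraries; bars: mean ± SD, n = 4 control and n = 6 NACET libraries). Hk2 lies between 357 and 460 CPM in the 6 old NACET libraries, below all 6 young NACET libraries, and Ldhb has higher means in the old groups.

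Among old mice the NACET comparison had 0 members called, by edgeR and by DESeq2. Over all genes edgeR called 0.543% of 16562 and DESeq2, without the filter on low counts, 1.47% of 25519. At an unadjusted p under 0.05 there were 3 members (Hk2, Pfkl and Aldoa, all with lower means under NACET), and 14.4% of all genes. Hk2 was at 357, 422, 397, 365, 460 and 418 CPM in the old NACET libraries. Of these, 2 lay below the lowest old control at 387 CPM and 4 within the control range, and edgeR gave a difference of -0.25 on the log2 scale (adjusted p = 0.221, SE 0.09). Without old control replicate 4 the change was -0.19 (adjusted p = 0.481), and within the 668-day cohort, with 4 control and 2 NACET mice, it was -0.29 (adjusted p = 0.614).

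For Pfkl 4 of 6 old NACET libraries lay below all old controls (log2 change -0.15, SE 0.07, edgeR adjusted p = 0.315). For Aldoa 4 of 6 also lay below (log2 change -0.12, SE 0.05, edgeR adjusted p = 0.317). In contrast, Aldoc and Pfkm had higher means under NACET, by 0.10 and 0.11 on the log2 scale, and 4 and 3 of the 6 treated libraries lay above all controls. Within the 668-day cohort these values were 0.02 and 0.03. Without old control replicate 4 the log2 changes were -0.13 for Pfkl, -0.10 for Aldoa, 0.12 for Aldoc and 0.11 for Pfkm, none called. Ldhb had a log2 change of 0.01 (SE 0.05), with means of 123 CPM in controls and 124 CPM under NACET.

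Among young mice 0 members and 0% of all genes were called in the NACET comparison. At an unadjusted p under 0.05 there were 0 members and 724 of 16588 genes, and DESeq2 called 0 genes. Hk2 spread most widely here, with 882, 486, 559, 587, 730 and 679 CPM in the young NACET libraries, which reach both above and below the young controls (log2 change 0.18, SE 0.14, edgeR adjusted p = 1). Ldha was lower in 4 of 6 treated libraries than in any control (1004, 986, 687, 765, 828 and 857 CPM; log2 change -0.18, SE 0.12, edgeR adjusted p = 1). With the batch tag as a covariate the change of Hk2 was 0.34 and that of Ldha -0.22. All 4 young controls carry the 119-day tag, which only 1 NACET library shares, so these 2 values rest on that library. The absence of a call does not show that treated and control retinas were alike.

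Between old and young retinas that had both received NACET, Hk2 and Pfkl were lower in the old. Hk2 (mm9, chr6:82675019-82724448, minus strand) was at 357 to 460 CPM in the 6 old NACET libraries (median 408) and at 486 to 882 CPM in the 6 young NACET libraries (median 633). Every old library lay below every young one, and 3.39% of all genes tested had groups that did not overlap, in either direction. The log2 change was -0.69 (SE 0.12, edgeR adjusted p = 0.00193), a fall of 38.2%. It was called under all 24 alternatives, with log2 changes from -0.77 to -0.59 and adjusted p from 6.88e-05 to 0.0112.

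Pfkl (mm9, chr10:77449692-77472828, minus strand), the liver-type phosphofructokinase, was at 295, 339.6, 318, 306, 314 and 365 CPM in old NACET libraries and at 469, 427, 339.9, 401, 349 and 368 CPM in young ones. Of the old libraries 5 lay below all the young ones and replicate 6 within their range. The log2 change was -0.28 (SE 0.07, edgeR adjusted p = 0.0430). This call was close to the threshold: it was kept under 13 of 24 alternatives and in 4 of 12 refits lacking a single library, with adjusted p from 0.0209 to 0.0973, and the count of members called then falls from 2 to 1. Leaving out young NACET replicate 1, 2 or 4, or old NACET replicate 1, 2, 3, 4 or 5, each ended the call.

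Both calls stand against 4.88% of all genes called in this comparison, with 2.64% called lower and 2.24% higher. The other 8 genes were not called. At an unadjusted p under 0.05 there were 6 members and 21.1% of all genes, the members including Hk1, Aldoa, Gapdh and Ldha with log2 changes of -0.17, -0.16, -0.22 and -0.19. Gpi1 and Pfkm had log2 changes of -0.02 and -0.01, with SE of 0.05 and 0.06, and with libraries scaled to their total counts both were above 0. Ldhb was again the only member with a higher mean in the old (log2 change 0.12, SE 0.07, edgeR adjusted p = 0.350). The median over the 10 genes was -0.16, and -0.00129 over all genes tested.

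**Figure D3:**
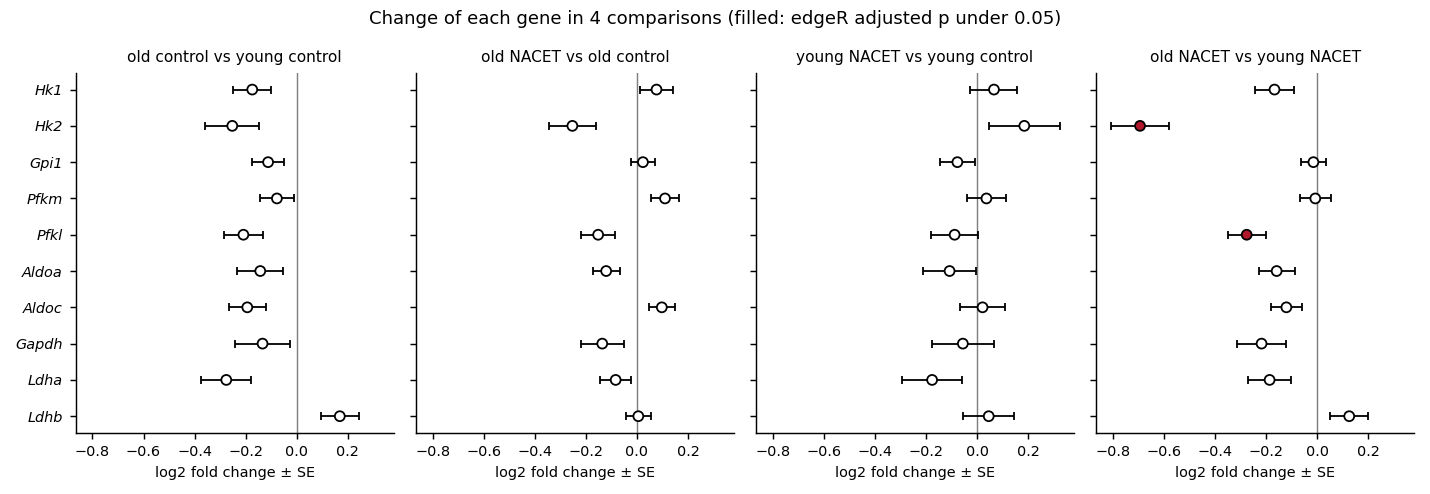
Log2 fold change of each gene with its SE in the 4 comparisons, on a common axis. Filled points mark an edgeR adjusted p under 0.05 and are Hk2 (-0.69) and Pfkl (-0.28) between old and young NACET retinas; the other points are open.

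By age cohort, the mean of Hk2 was 390 CPM at 668 days, 381 CPM at 581 days and 439 CPM at 574 days in old NACET mice (2 mice each), against 639 CPM in the 5 young NACET mice tagged 129 days and 730 CPM in the 1 tagged 119 days. This order of the cohort means follows from the separation of the single libraries given above and adds nothing to it. With labelled males only, the change of Hk2 was -0.64 (edgeR adjusted p = 0.0112) and that of Pfkl -0.34 (adjusted p = 0.0276). Without old NACET replicate 1, the library rich in lens markers, Hk2 changed by -0.66 (adjusted p = 0.00509) and Pfkl by -0.25 (adjusted p = 0.0959).

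Sums of marker genes of several cell types also differed between these groups. The summed level of 8 rod markers was 83180 ± 10480 CPM in young NACET and 67900 ± 5588 CPM in old NACET libraries (ranges 60430 to 73980 CPM in the old and from 72320 CPM upward in the young), and 87020 ± 9735 CPM in young and 76850 ± 8243 CPM in old controls. None of the 8 was at 0 in any group. Cone markers summed to 2014 ± 165 CPM in young NACET and 1718 ± 125 CPM in old NACET libraries, while markers of Muller glia were close, at 3147 ± 149 and 3128 ± 142 CPM. The 6 markers of corneal epithelium summed to 133 ± 142 CPM in young NACET (4.42 to 369 CPM) and 5.90 ± 3.14 CPM in old NACET libraries (0.908 to 10.5 CPM), and the 6 microglia markers to 21.8 ± 3.53 and 30.04 ± 2.56 CPM. The 6 markers of retinal pigment epithelium, a layer that can cling to a dissected retina, summed to 96.8 ± 27.2 CPM in young NACET and 53.7 ± 17.9 CPM in old NACET libraries (ranges 66.0 to 126 and 24.2 to 74.2 CPM). The part of these markers in the results was not tested.

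The difference between the NACET effects at the 2 ages was tested as an interaction over all 20 libraries. No member and 0% of all genes were called by edgeR, and DESeq2 called 0 members. Hk2 had the largest term, -0.44 on the log2 scale (SE 0.18, edgeR adjusted p = 0.685), and was the 1 member with an unadjusted p under 0.05, against 1052 of 16993 genes. Over 31 alternatives the term of Hk2 stayed negative, from -0.53 to -0.34, and it was -0.38 without old control replicate 4. Thus Hk2 was higher on average in treated than in control young retinas (654 and 574 CPM) and lower in treated than in control old retinas (403 and 481 CPM), but a difference between these effects was not shown across all genes.

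Since isozyme pairs are read in the same library, their ratio needs no scaling, and it was computed from counts as a description with no test. Ldhb per Ldha was 0.115 ± 0.00919 in young controls, 0.134 ± 0.0188 in young NACET, 0.156 ± 0.00959 in old controls and 0.166 ± 0.00800 in old NACET libraries. The 4 old controls, at 0.147 to 0.169, lay above the 4 young controls, at 0.104 to 0.126. No share was computed over other gene pairs, so this separation has no background beside it. Among single genes tested 10.3% had groups that did not overlap, in either direction, Ldha included. All old controls were labelled male, and the young controls were labelled as 2 males and 2 females. Between these groups the log2 ratio was 0.44 higher in the old, while the larger SD in either was 0.12, and without old control replicate 4 it was 0.45 higher. The young NACET libraries spread from 0.104 to 0.162 and reached into both.

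The ratio of Hk2 to Hk1 was 0.624 ± 0.0425 in young controls, 0.677 ± 0.108 in young NACET, 0.589 ± 0.0537 in old controls and 0.471 ± 0.0407 in old NACET libraries. The old NACET libraries, at 0.435 to 0.541, included the lowest values of all, but young NACET replicate 2, at 0.472, and old control replicate 1, at 0.521, fell among them. Pfkl per Pfkm was 2.63 ± 0.0877, 2.42 ± 0.324, 2.40 ± 0.220 and 2.00 ± 0.151 in the same order of groups. Here the old NACET libraries, at 1.78 to 2.19, did not overlap the young NACET libraries, at 2.23 to 3.08, but did overlap the old controls, whose replicate 1 was at 2.11. Between the NACET groups 3.39% of single genes tested did not overlap, and no share was computed over other gene pairs. Aldoc per Aldoa was 0.212 ± 0.00428, 0.232 ± 0.0144, 0.205 ± 0.0131 and 0.238 ± 0.0133, with higher means in both treated groups than in the controls of the same age and ranges that overlapped.

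**Figure D4:**
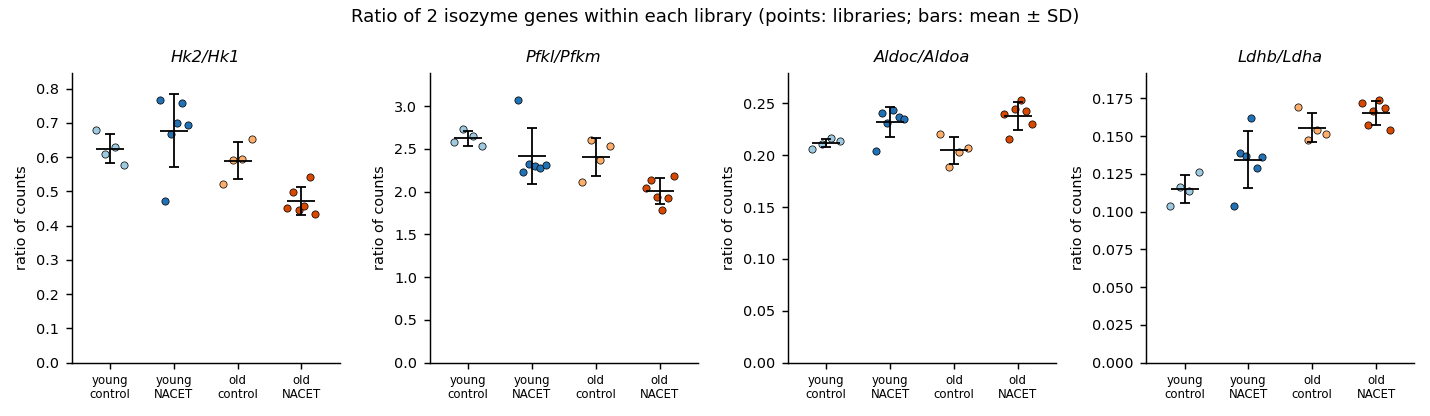
Ratio of the counts of 2 isozyme genes in each library, by group (points: libraries; bars: mean ± SD, n = 4 control and n = 6 NACET libraries). Ldhb/Ldha is at 0.104 to 0.126 in young controls and 0.147 to 0.169 in old controls, and the mean of Pfkl/Pfkm is lowest in old NACET libraries, which overlap the old controls. The ratios were not tested, and no share of separated groups was computed over other gene pairs.

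Across the 20 libraries most of the members varied together. Of the 45 pairs 38 had a positive Pearson r of log2 CPM, with a median of 0.50, and after group means were removed 34 pairs were positive, with a median of 0.51. The libraries share their scaling and their tissue, so these values are descriptions only. The closest pair was Pfkl and Aldoa (r = 0.93), and the most opposed was Gapdh and Ldhb (r = -0.69). For Gapdh and Ldhb 85.6% and 33.6% of the 50-base words have copies elsewhere, and Gapdh held only 195 to 438 counts per library. The part of this in their correlation was not tested. Ldhb also ran against Hk2 (r = -0.49).

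By the same measure over the 10355 genes with a mean of at least 10 CPM, the gene most like Hk2 was Zdhhc5 (r = 0.93), the one most like Ldha was Rom1, a protein of the photoreceptor outer segment (r = 0.96), and the one most like Aldoa was Pkm2, the pyruvate kinase gene (r = 0.96). Pfkl was most like Slc16a3, which encodes the lactate exporter MCT4 (r = 0.93). Hk1 was most like C2cd2l (r = 0.95), Pfkm like Fbxo2 (r = 0.94), Aldoc like Ppme1 (r = 0.96), Gapdh like Tet2 (r = 0.82) and Ldhb like Mrpl40 (r = 0.93). The mean of the 10 genes was most like Prelid1, Pgam1, Syngr1, Syp and Clptm1, with r from 0.94 to 0.96.

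The rest of the pathway was read from 67 further genes in 5 lists, covering other enzymes of glycolysis, transport of glucose and lactate, regulators of flux, gluconeogenesis and the HIF1 pathway, of which 57 passed the filter in each comparison of groups. Between old and young NACET retinas 6 of 57 were called, 1 higher and 5 lower, where 4.88% of all genes were. None was called in the other comparisons by edgeR, with 6 of 57 at an unadjusted p under 0.05 for age in controls, 15 for NACET in old mice, 3 for NACET in young mice and 4 of 59 for the interaction, against 16.3%, 14.4%, 4.36% and 6.19% of all genes. DESeq2 called 1, 8, 0 and 0 of the list in these, against 2.86%, 1.47%, 0% and 0.324% of all genes. These DESeq2 shares are over 25177 to 26509 genes, without the filter on low counts, and so are not on the same set as the edgeR shares. The median log2 change over the 57 genes was -0.02 for age in controls and -0.04 between the NACET groups.

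Among other enzymes of glycolysis, 3 of 13 tested were called between the NACET groups. Hkdc1, a hexokinase relative, was at 5.58, 6.28, 7.03, 7.03, 8.95 and 8.89 CPM in young NACET and at 14.7, 13.7, 11.9, 10.7, 12.4 and 12.8 CPM in old NACET libraries. It ran the opposite way to Hk2, with every old library above every young one, where 3.39% of all genes tested had groups without overlap. For Hkdc1 edgeR gave a log2 change of 0.80 (adjusted p = 5.59e-04, SE 0.12). For NACET in young mice its log2 change was -0.50 (edgeR adjusted p = 1). Its level was a small part of that of Hk1 or Hk2. Eno1 (enolase) and Pgk1 (phosphoglycerate kinase) were lower in the old, with log2 changes of -0.29 (edgeR adjusted p = 0.0260) and -0.25 (adjusted p = 0.0245). For both genes most of the 50-base words have copies elsewhere (72.2% and 92.9%), so their levels are uncertain, and each call was kept under 18 of 24 alternatives. With labelled males only the call of Pgk1 was lost (log2 change -0.25, edgeR adjusted p = 0.0551).

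Pgk1 was also the pathway gene with the smallest p for NACET in old mice (log2 change -0.21, SE 0.04, edgeR adjusted p = 0.0517). Old NACET libraries were at 30.3 to 31.9 CPM and old controls at 34.2 to 38.8 CPM. In this comparison 3.75% of all genes tested had groups that did not overlap, in either direction. Eno1 was that with the smallest p for age in controls (log2 change -0.38, SE 0.09, edgeR adjusted p = 0.0776). It was at 415 to 540.5 CPM in young controls and 313.6 to 386.5 CPM in old controls, without overlap, as were 10.3% of all genes tested. Without old control replicate 4 the log2 changes were -0.17 for Pgk1 (adjusted p = 0.155 by edgeR) and -0.40 for Eno1 (adjusted p = 0.150). Under 4 of 23 alternatives Pgk1 was called for NACET in old mice, with edgeR or DESeq2 adjusted p from 0.0134 to 0.544. Eno1 was called for age in controls under 2 of 20.

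Of the transport list 2 of 10 genes were called between the NACET groups. Slc16a3 was at 28.3 to 44.98 CPM in young NACET and 22.8 to 29.96 CPM in old NACET libraries, and edgeR gave a log2 change of -0.54 (adjusted p = 0.00237, SE 0.09). Its change for age in controls was -0.37 and for NACET in old mice -0.34, and neither was called (edgeR adjusted p = 0.156 and 0.0741). Slc16a8 encodes the lactate transporter MCT3 of the pigment epithelium. It was at 4.15 to 8.45 CPM in young NACET and 1.32 to 4.02 CPM in old NACET libraries (log2 change -1.03, SE 0.23, edgeR adjusted p = 0.0139). The call was kept under 23 of 24 alternatives and lost with labelled males only (log2 change -0.87, edgeR adjusted p = 0.0551). In this comparison 3.39% of all genes tested had groups without overlap. The 6 markers of pigment epithelium given above were also lower in old NACET, and summed to 61.2 ± 58.3 CPM in young and 104 ± 31.4 CPM in old controls. Their part in the change of Slc16a8 was not tested. Its interaction term was -1.40 (SE 0.42, edgeR adjusted p = 0.315).

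Slc16a1 (MCT1) had a log2 change of -0.25 for NACET in old mice (SE 0.05, edgeR adjusted p = 0.0535) and Slc2a1, the glucose transporter GLUT1, of -0.16 for age in controls (SE 0.07, edgeR adjusted p = 0.276). In the HIF1 list 1 of 13 genes was called between the NACET groups, Epas1, which encodes HIF2 alpha, at -0.21 on the log2 scale (SE 0.06, edgeR adjusted p = 0.0465). This call was kept under 10 of 24 alternatives. Ddit4, a stress gene that HIF1 induces, had a log2 change of -0.21 for NACET in old mice (SE 0.05, edgeR adjusted p = 0.0663). None of the 18 flux regulators and none of the 3 genes of gluconeogenesis tested were called in any of the 4 comparisons of groups by edgeR. Among the regulators, Pdk1 encodes a kinase that inhibits pyruvate dehydrogenase. Its log2 changes were -0.16 for age in controls (edgeR adjusted p = 0.174) and 0.18 for NACET in old mice (edgeR adjusted p = 0.0914). Txnip, which restrains glucose uptake, had a log2 change of -0.49 for NACET in old mice (edgeR adjusted p = 0.122). For NACET in old mice Slc16a1 was called under 7 of 23 alternatives, with edgeR or DESeq2 adjusted p from 4.24e-04 to 0.546. Slc16a3, Ddit4, Pdk1 and Txnip were called under 1 each, which was DESeq2. Without old control replicate 4 the log2 changes for NACET in old mice were -0.23 for Slc16a1, -0.28 for Slc16a3, -0.21 for Ddit4, 0.18 for Pdk1 and -0.56 for Txnip, with edgeR adjusted p from 0.144 to 0.214. For age in controls they were -0.43 for Slc16a3, -0.13 for Slc2a1 and -0.17 for Pdk1, with adjusted p from 0.195 to 0.475.

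**Figure D5:**
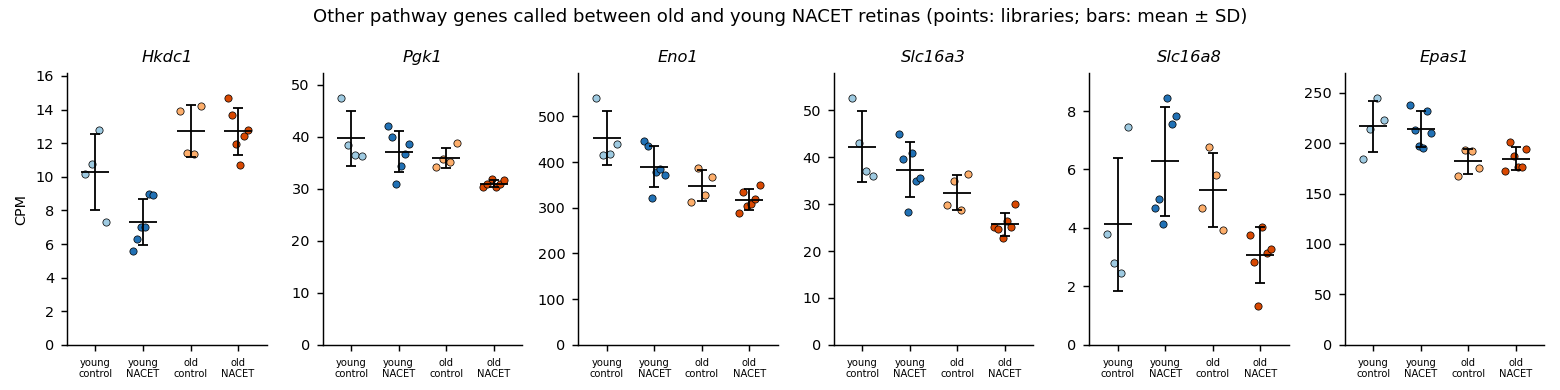
CPM of the 6 other pathway genes called between old and young NACET retinas, in each library by group (points: libraries; bars: mean ± SD, n = 4 control and n = 6 NACET libraries). Hkdc1 lies at 10.7 to 14.7 CPM in old NACET libraries, above all 6 young NACET libraries, while the other 5 genes have lower means in old than in young NACET libraries.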

How the data were processed

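The authors deposited raw counts of reads per gene, with no normalization. The study's methods and labels state that polyA RNA was made into TruSeq libraries and sequenced as single ends, and reads were aligned to mm9 with TopHat 2.1.0 and counted over exons with HTSeq 0.11.2 without strand. The annotation is not given in the sources used here. Reads with more than 1 alignment (6.65% to 7.92% per library) were set aside, as were ambiguous reads (1.09% to 1.20%). A row that names no gene (at most 0.00218% of counts) was left out.

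Differences were tested with edgeR 4.0.16 (R 4.3.3) on the counts: TMM scaling, filterByExpr, quasi-likelihood tests, and p-values adjusted by Benjamini-Hochberg over every gene tested, called at an adjusted p under 0.05. Comparisons of groups were fitted on the groups compared and the interaction on all 20 libraries. DESeq2 1.42.0, without the filter on low counts, was an alternative. Named genes were the 10 members, and of the other pathway lists genes called or among the 2 with the smallest p of a list in a comparison. Alternatives covered scaling, filtering, labelled sex, cohort, left-out libraries and a replicate block, and, chosen after seeing the data, copy rows added to their parent and levels per length of the longest transcript. The members and lists were chosen with earlier results of these data known. The 18 pairs of libraries sharing a replicate number had correlations from -0.21 to 0.55, with 4 above 0.1, so the numbers were not taken as pairs. RPKM used exon lengths of the GENCODE annotation of mm9. Exact copies were sought in mm9 with 50-base words. The scripts were tested on simulated data. Each library is from a separate mouse. Gene counts were at least 17.7 M per library, and how far counting error enters the spread of a gene depends on its own counts.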

Additional observations from a re-analysis of the deposited data

Results flagged for a closer look

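In groups of 4 to 6 libraries, the highest or lowest value was tested for its distance from the rest by Dixon's criterion, over the level of each gene and the 4 isozyme ratios in each group. Of 56 groups of values 3 stood out, and chance gives about 1 in 20. All 3 were log2 ratios in young NACET libraries. The ratio of Hk2 to Hk1 was -1.08 in replicate 2, with the others at -0.58 to -0.38. The ratio of Pfkl to Pfkm was 1.62 in replicate 1, with the others at 1.16 to 1.21. The ratio of Aldoc to Aldoa was -2.29 in replicate 1, with the others at -2.11 to -2.04.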

How the results depend on the processing

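Over 1220 refitted values of the 10 genes, 1167 kept their direction, and no gene gained a call. The 53 that turned belonged to genes with log2 changes of at most 0.09. Leaving out 1 library at a time, the values that turned ranged as follows: Ldhb from -0.014 to 0.028 and Pck2 (gluconeogenesis) from -0.036 to 0.048 for NACET in old mice; Aldoc from -0.024 to 0.084, Gapdh from -0.13 to 0.016, Ldhb from -0.0088 to 0.10 and Pfkm from -0.0093 to 0.079 for NACET in young mice; Gpi1 from -0.046 to 0.0058 and Pfkm from -0.036 to 0.037 between the NACET groups. For the interaction they were Aldoa from -0.090 to 0.031, Hk1 from -0.036 to 0.063, Ldha from -0.018 to 0.14 and Ldhb from -0.095 to 0.014. For NACET in old mice, Ldhb was -0.00239 and Pck2 -6.52e-04 under upper quartile scaling, Ldhb -0.096 and Pck2 -0.125 in the 668-day cohort, Ldhb -0.097 and Pck2 -0.126 with cohort as a covariate, and Ldhb -0.0061 with copy rows added. For NACET in young mice, Pfkm was -0.0062, Aldoc -0.014 and Bnip3 (a HIF1 target) -0.044 in labelled males. With the batch tag as a covariate Pfkm was -0.052, Aldoc -0.097, Ldhb -0.049 and Pcx (pyruvate carboxylase) -0.061, values that rest on 1 NACET library. With the age in the title as a covariate Pfkm was -0.019, Aldoc -0.045, Gapdh 0.013 and Pcx -0.083. Between the NACET groups, scaling to total counts gave Gpi1 0.037 and Pfkm 0.041. For the interaction, Hk1 was -0.0066 under upper quartile scaling and -0.024 in labelled males, Aldoa 0.026 and Bnip3 0.051 in labelled males, and Aldoa 0.0094 with sex as a covariate. The cause was not tested for any of these.

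The count of members called between the NACET groups was 1 in place of 2 when scaled to total counts and with no filter, and 1 to 2 without each library in turn. Other pathway genes called for age in controls were 1 in place of 0 by DESeq2 and in the fit of all 4 groups, and 0 to 1 without each library. For NACET in old mice they were 2 under upper quartile and total-count scaling, 8 by DESeq2, and 1 with no filter, at 1 CPM and in the robust fit, and 0 to 2 without each library, the 2 being found without old control replicate 1. Between the NACET groups they were 3 to 9 in place of 6 without each library, with 3 without old NACET replicate 1, 4 or 5 and 9 without young NACET replicate 3, and for the interaction 0 to 1. With the replicate number as a block, members called between the NACET groups were 1 and other pathway genes 3, and Pfkl had an adjusted p of 0.102; in old mice Gpi1 was -0.00309, Ldhb -0.011 and Pck2 -0.024, and the interaction of Hk1 -0.024. These libraries share only a number. Over all genes DESeq2 called 721 in place of 234 for age in controls, 375 in place of 90 for NACET in old mice, 1326 in place of 795 between the NACET groups and 86 in place of 0 for the interaction. Without 1 library in turn edgeR called 113 to 414, 8 to 110, 478 to 922 and 0 to 77 in these. None of 176 isozyme ratios or 40 levels moved by more than the spread between libraries. Of the 10 levels per length, 8 moved by more than that spread over the longest transcript. Gapdh, Gpi1, Ldha and Ldhb hold much sequence with copies elsewhere, and its part in their levels was not tested.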
